A study of Mus musculus with 14 samples.

Results

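The nuclear genes Hspd1, Hspe1, Hspa9, Trap1, Lonp1, Clpp, Clpx and Htra2, which encode chaperones and proteases of the mitochondrial matrix and intermembrane space, were followed in mouse oocytes. They were taken by gene symbol, and all 8 were found in both deposited count tables, out of 18507 genes listed in either. In GRCm38.p6, the assembly of mm10, Hspd1 (Entrez gene 15510) spans chr1:55077833-55088243, Hspe1 (15528) chr1:55088148-55091317, Hspa9 (15526) chr18:34937414-34954351 and Trap1 (68015) chr16:4039971-4077840. Lonp1 (74142) spans chr17:56614297-56626903, Clpp (53895) chr17:56990264-56996371, Clpx (270166) chr9:65294251-65330658 and Htra2 (64704) chr6:83051266-83054571. The groups gave 14 libraries in all. Ovulated CKO oocytes (n = 3) and GV CKO oocytes (n = 4) came from Mff fl/fl; Gdf9-Cre mice, in which Cre recombinase driven by the Gdf9 promoter acts in oocytes and deletes the floxed parts of Mff. Ovulated WT oocytes (n = 3) and GV WT oocytes (n = 4) came from Mff fl/fl mice, so that the controls carried the floxed alleles without Cre. GV oocytes are arrested in prophase of meiosis I with an intact nucleus, the germinal vesicle, and ovulated oocytes have resumed meiosis and left the follicle. Mff encodes the outer-membrane receptor that recruits DRP1 for mitochondrial fission. The labels call the delivered material single-cell samples, and they state neither how many oocytes or mice went into a library nor the age of the mice. P-values therefore describe how these libraries varied, which may be technical. Fewer cells of a type and less RNA per cell cannot be told apart in such libraries.

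Most mitochondrial proteins are made in the cytosol, threaded through the inner membrane and folded in the matrix. Mitochondrial HSP70, encoded by Hspa9, pulls precursors into the matrix and folds them, and HSP60, encoded by Hspd1, encloses unfolded proteins in a barrel that HSP10, encoded by Hspe1, closes as a lid. TRAP1 is the mitochondrial HSP90. Damaged matrix proteins are degraded by LONP1, an ATP-dependent serine protease, and by a complex in which the unfoldase CLPX feeds the peptidase CLPP; HTRA2 is a serine protease of the intermembrane space. Mice that lack Clpp are known to be infertile. A fully grown oocyte makes almost no new RNA, so that from the GV stage to ovulation its messages are largely kept, degraded or have their poly(A) tails shortened or lengthened.

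Hspd1 and Hspe1 lie head to head on chromosome 1, and their shared upstream region is shown because their messages encode the 2 parts of a single machine. For 6 of the 8 genes there was an entry among the RefSeq promoter windows of GRCm38.p6, which span 250 bases before to 50 after a transcript start and gave 7 windows. The Hspe1 window, chr1:55087898-55088197 on the plus strand, is printed 5′ to 3′ with the heat-shock element core (GAANNTTC, the same letters on both strands) in capitals.
Hspe1 promoter: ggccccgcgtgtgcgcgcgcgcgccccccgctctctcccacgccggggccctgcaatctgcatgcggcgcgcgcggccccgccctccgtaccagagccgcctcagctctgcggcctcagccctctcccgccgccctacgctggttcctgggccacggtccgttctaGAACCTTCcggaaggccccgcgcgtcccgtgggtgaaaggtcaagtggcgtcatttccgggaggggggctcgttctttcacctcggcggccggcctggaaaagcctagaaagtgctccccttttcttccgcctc
The same 8 letters also fell in a minus-strand window of Hspd1, chr1:55087883-55088182. This core was present in 7.86% of the 32851 promoter windows of the same length. The windows of Trap1, Lonp1 and Clpp held none of the motifs searched, namely this core, CCAAT (in 37.4% of windows, either strand) and TGATGNAA, the C/EBP-ATF composite (in 3.97%, either strand). CCAAT was found in the Clpx window, chr9:65294010-65294309, and in the other Hspd1 window, chr1:55088194-55088493.

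The ends of the messages are shown because tail length in the maturing oocyte is known to be set by letters close to the poly(A) site. The last 30 bases of the principal GENCODE M21 transcripts (GRCm38) are printed 5′ to 3′ for Trap1 and Lonp1, which both fell between the stages in WT, with the polyadenylation hexamer (AATAAA or ATTAAA, on the message's strand) in capitals; 69.1% of 12597 genes tested between the stages had one there. Of the 8 genes 6 had one in these bases, and Clpx and Htra2 did not. The Htra2 stretch printed below holds AATAAA just upstream of its last 30 bases.
Trap1, chr16:4039971-4040000, minus strand: tcaATTAAAcagtatttcttagtccccgtg
Lonp1, chr17:56614297-56614326, minus strand: gaatcatgAATAAAgaaaacctttccaaaa
Cytoplasmic polyadenylation letters (TTTTAT or TTTTAAT, message strand) were searched in the last 100 bases after the data had been seen, and Htra2 was the only one of the 8 to hold them there, 46 bases from its end. In Hspe1 and Clpx they stood farther up, 101 and 143 bases from the end. The 30 bases around each are given with those letters in capitals.
Htra2, chr6:83051294-83051323, minus strand: ccgaagaacacaTTTTATataaaataaaat
Hspe1, chr1:55091195-55091224, plus strand: tccatgcctcccTTTTATaataaacagatg
Clpx, chr9:65330503-65330532, plus strand: ctctgaaccattTTTTATcaccatcagtga
These letters were in the last 100 bases of 19.5% of the genes tested between the stages. Over those 2460 genes the median ovulated-to-GV log2 fold change in WT was 0.77, against -0.41 over the 10137 genes without them. This fold change also moved with implied transcript length, with a median of -1.88 under 1000 bases and 0.89 over 3000 bases. The part of the letters in the change of Htra2 or of any other gene was not tested. A match is a description of the sequence and not a measured site.

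Library totals lay between 26575593 and 28847424 estimated counts. Levels are TMM-normalised CPM, counts scaled to library depth, on a single scale over the 14 libraries, and fold changes are log2. In GV oocytes, the 100 most abundant genes held 35.2% of the counts in CKO library 1, 42.4% in CKO library 2 and 38.1% in WT library 2, against 48.2% to 51.1% in the other 5 libraries. These 3 libraries were left out as an alternative, as were ovulated WT 3 and CKO 2, which lay farthest apart in earlier results. The ovulated pair was chosen from these data and its removal leaves fewer libraries per group. A call lost without that pair therefore cannot be told apart from lower power. Mff fell to 43.0 ± 11.6 CPM in ovulated CKO oocytes, against 433 ± 220 CPM in ovulated WT oocytes (SD, n = 3 each; log2 fold change -3.31, adjusted p = 0.000155). It fell to 39.6 ± 7.34 CPM in GV CKO oocytes, against 750 ± 226 CPM in GV WT oocytes (SD, n = 4 each; log2 fold change -4.27, adjusted p = 0.000103). The labels do not name the deleted exons. All 10 oocyte markers, among them Gdf9, Bmp15 and Zp3, had counts in every group. As CPM of library totals, without TMM scaling, their sum was 18928 to 23815 in ovulated and 24145 to 32733 in GV libraries. These markers were not level: 6 of the 10 fell between the stages in WT and 5 in CKO (background 36.2% and 31.2% lower), and 3 of the 10 were higher in ovulated CKO than in WT oocytes (Zp2 by 2.33, Zp3 by 1.41 and Npm2 by 1.14; background 6.44% of 12010 genes higher).

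Per length, Hspe1 was the most abundant of the 8 messages in every group. Its deposited FPKM (fragments scaled to transcript length and library depth) averaged 307 ± 94.9 in ovulated CKO, 153 ± 12.1 in ovulated WT, 244 ± 45.0 in GV CKO and 165 ± 24.7 in GV WT oocytes. Hspe1 made up 69.7%, 77.5% and 72.3% of the summed FPKM of the 8 genes in ovulated CKO libraries, against 55.2%, 58.2% and 57.5% in ovulated WT libraries. In GV oocytes this share was 63.5%, 75.1%, 64.0% and 57.3% in CKO libraries, against 56.3%, 57.2%, 56.4% and 50.9% in WT libraries. In deposited FPKM, Hspe1 alone thus exceeded the other 7 genes together in all 14 libraries. That rests on the length behind its FPKM, an implied 536 bases, against 774 bases in its principal GENCODE M21 transcript. Hspa9 came next in every group, at 44.0, 53.8, 38.6 and 43.5 FPKM in ovulated CKO, ovulated WT, GV CKO and GV WT oocytes. Behind Hspa9 came Hspd1 in ovulated oocytes (30.8 FPKM in CKO, 27.4 FPKM in WT) and Trap1 in GV oocytes (29.6 FPKM in CKO, 35.8 FPKM in WT). Hspa9 and Trap1 overlapped in GV CKO libraries (25.7 to 50.8 and 19.7 to 39.4 FPKM) but not in GV WT libraries (39.9 to 46.3 and 29.6 to 38.6 FPKM). Clpp was last in ovulated oocytes (0.820 FPKM in CKO, 0.567 FPKM in WT), and Htra2, which ranked above 4 of the others there, had the lowest mean in GV oocytes (6.41 FPKM in CKO, 5.62 FPKM in WT). The GV ranges of Htra2 (4.87 to 9.61 FPKM in CKO, 4.6 to 7.63 FPKM in WT) overlapped those of Lonp1 in both genotypes and that of Clpp in WT.

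**Figure D1:**
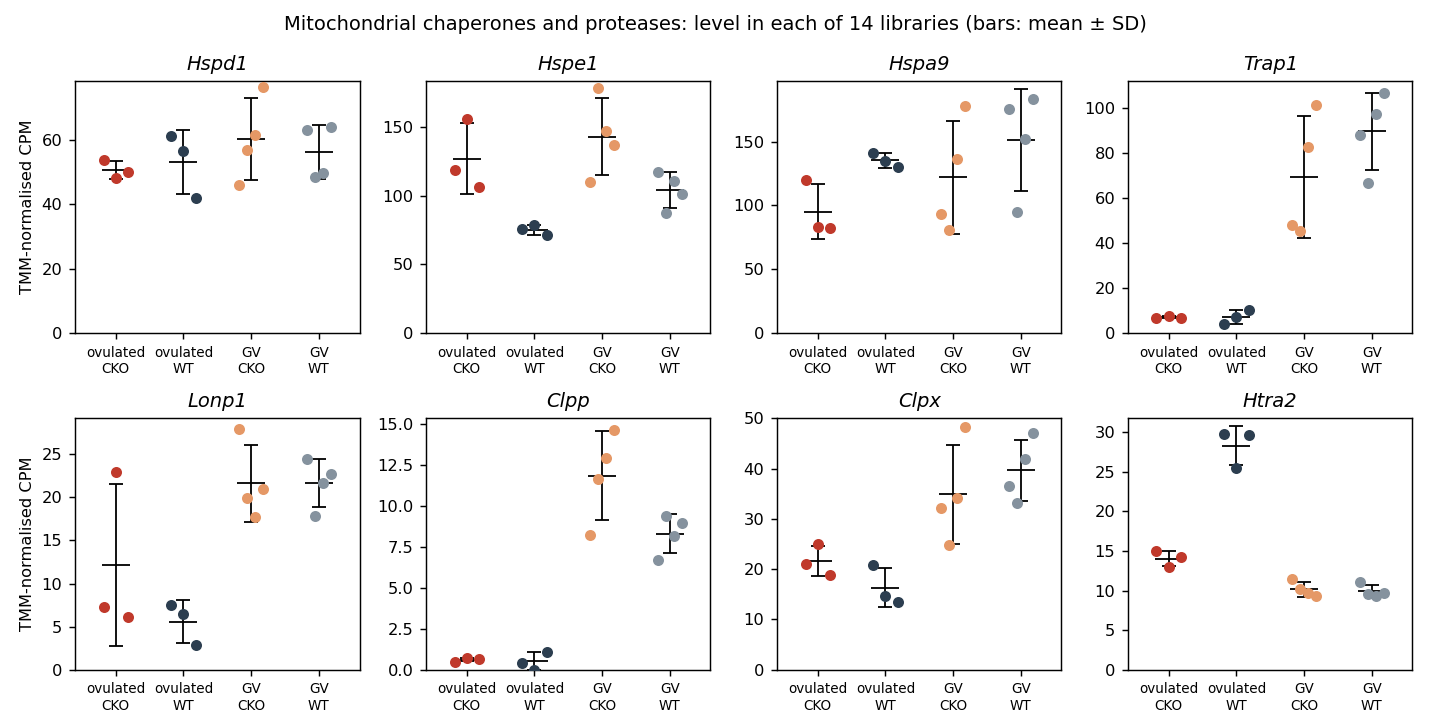
Each panel plots 1 gene, with TMM-normalised CPM on the vertical axis and the groups on the horizontal axis; each point is a library and the bars are mean ± SD (n = 3 in ovulated, n = 4 in GV groups). Trap1 and Clpp lie near the floor of their panels in all 6 ovulated libraries, and Htra2 is highest in the 3 ovulated WT libraries, which lie between 25.5 and 29.7 CPM.

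The first question was what changes in these messages as the control oocyte matures. Between the GV stage and ovulation in WT, Trap1, Clpp, Lonp1 and Clpx fell and Htra2 rose, while Hspd1, Hspe1 and Hspa9 did not pass the test. That made 5 of 8 genes called at adjusted p under 0.05 (62.5%), against 66.4% of the 13199 genes tested, so the share was close to the background. The 4 called lower (background 36.2%) and the 1 called higher (background 30.3%) had a median with the rest of -0.87, against -0.17 over all genes. These are levels relative to the other messages of a library, not amounts per oocyte. Tail length was not measured, so a change in message amount and a change in poly(A) tail were not told apart.

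Trap1, the mitochondrial HSP90, measured 3.94, 6.97 and 10.2 CPM in ovulated WT libraries, against 87.8, 66.7, 97.4 and 106.6 CPM in GV WT libraries. The lowest GV library lay several times above the highest ovulated one, and the log2 fold change was -3.67 (SE 0.37, adjusted p = 2.48e-07). Clpp, the peptidase, had 0.435, 0 and 1.10 CPM in ovulated WT libraries, which rest on 14, 0 and 31 counts, against 6.67, 9.39, 8.17 and 8.97 CPM in GV WT libraries. The count of 0 allows up to 0.0968 CPM in that library (3 counts, counting error only). Clpp was thus close to the limit of detection in ovulated oocytes, and its log2 fold change was -4.03 (SE 0.64, adjusted p = 2.80e-05).

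Clpx, the unfoldase that serves Clpp, measured 20.7, 14.6 and 13.5 CPM in ovulated WT libraries, against 36.5, 33.2, 41.9 and 47.0 CPM in GV WT libraries. These groups also stood apart, and the log2 fold change of -1.28 (SE 0.27, adjusted p = 0.000435) was smaller in size than that of Clpp. Lonp1, the other matrix protease, was at 7.55, 6.42 and 2.81 CPM in ovulated WT libraries, against 24.5, 17.8, 21.7 and 22.7 CPM in GV WT libraries. No ovulated WT library reached the GV range for Lonp1, and its log2 fold change was -1.95 (SE 0.43, adjusted p = 0.000641). Htra2, the intermembrane-space protease, moved the other way, with 29.7, 25.5 and 29.7 CPM in ovulated WT libraries, against 11.1, 9.62, 9.26 and 9.63 CPM in GV WT libraries. Every ovulated WT library exceeded every GV library, and the log2 fold change was 1.52 (SE 0.22, adjusted p = 1.30e-05). These 5 calls held in all alternatives that could be run for each gene (23, or 22 for Clpp), among them the fits without the libraries that stood apart.

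The import and folding chaperones were nearer to level. Hspd1, for HSP60, measured 61.0, 56.3 and 41.8 CPM in ovulated WT libraries, against 63.0, 48.4, 49.6 and 63.7 CPM in GV WT libraries, and the ranges overlapped (log2 fold change -0.08, SE 0.23, adjusted p = 0.766). Hspa9, for mitochondrial HSP70, ranged from 130 to 141 CPM in ovulated WT libraries, inside the 95.1 to 184 CPM of GV WT libraries (-0.16, SE 0.29, adjusted p = 0.629). Hspe1, for HSP10, had 75.9, 78.4 and 71.1 CPM in ovulated WT libraries, against 117, 87.0, 110 and 101 CPM in GV WT libraries. The Hspe1 ranges did not overlap, but the log2 fold change of -0.47 (SE 0.23) had an adjusted p of 0.0778; it was called in 2 of 23 alternatives, at a mean of at least 10 CPM (-0.66, adjusted p = 0.0106) and without the 3 GV libraries named above (-0.56, adjusted p = 0.0196). On the deposited FPKM scale, where the median gene lay at 0.01 with a pseudocount of 1 in place of -0.17, the log2 values of Hspd1 and Hspa9 turned positive (0.32 and 0.30), so their sign depends on the scaling.

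In CKO oocytes 3 of 8 genes fell between the stages and 0 rose (37.5% called; background 54.4%, with 31.2% of genes lower). Trap1 and Clpp again had the lowest values. Trap1 was at 6.73, 7.69 and 6.73 CPM in ovulated CKO libraries, against 48.1, 45.3, 82.5 and 101 CPM in GV CKO libraries (log2 fold change -3.29, SE 0.37, adjusted p = 1.84e-06). Clpp was at 0.487, 0.685 and 0.661 CPM in ovulated CKO libraries, against 8.21, 11.6, 12.9 and 14.6 CPM in GV CKO libraries (-4.26, SE 0.63, adjusted p = 3.01e-05). Both genes were far lower in every ovulated CKO library than in any GV CKO library. Clpx fell by 0.69 on the log2 scale (SE 0.26, adjusted p = 0.0348), with 21.1, 24.9 and 18.9 CPM in ovulated CKO libraries, against 32.2, 24.8, 34.2 and 48.3 CPM in GV CKO libraries. Its groups overlapped by a small margin, and the Clpx call was kept in 11 of 23 alternatives (adjusted p from 0.0074 to 0.742).

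Lonp1 and Htra2, which changed in WT, missed the threshold between the stages in CKO oocytes. Lonp1 measured 7.28, 22.9 and 6.16 CPM in ovulated CKO libraries, against 27.97, 19.9, 17.7 and 20.9 CPM in GV CKO libraries. A single library, ovulated CKO 2, lay within the GV range: with it the log2 fold change was -0.83 (SE 0.41, adjusted p = 0.0919), and without it -1.69 (adjusted p = 0.00108). Htra2 had 14.95, 12.97 and 14.17 CPM in ovulated CKO libraries, against 11.4, 10.2, 9.65 and 9.34 CPM in GV CKO libraries. Its groups did not overlap, yet the log2 fold change of 0.47 (SE 0.22) had an adjusted p of 0.0825, and it was called in 7 of 23 alternatives. For Hspd1, Hspe1 and Hspa9 the values were -0.25, -0.17 and -0.36, with adjusted p of 0.377, 0.546 and 0.312; on the FPKM scale with a pseudocount of 1 all 3 were positive, at 0.29, 0.30 and 0.21. RLE scaling moved the median of all genes in this comparison to -0.08, against -0.19 with TMM.

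**Figure D2:**
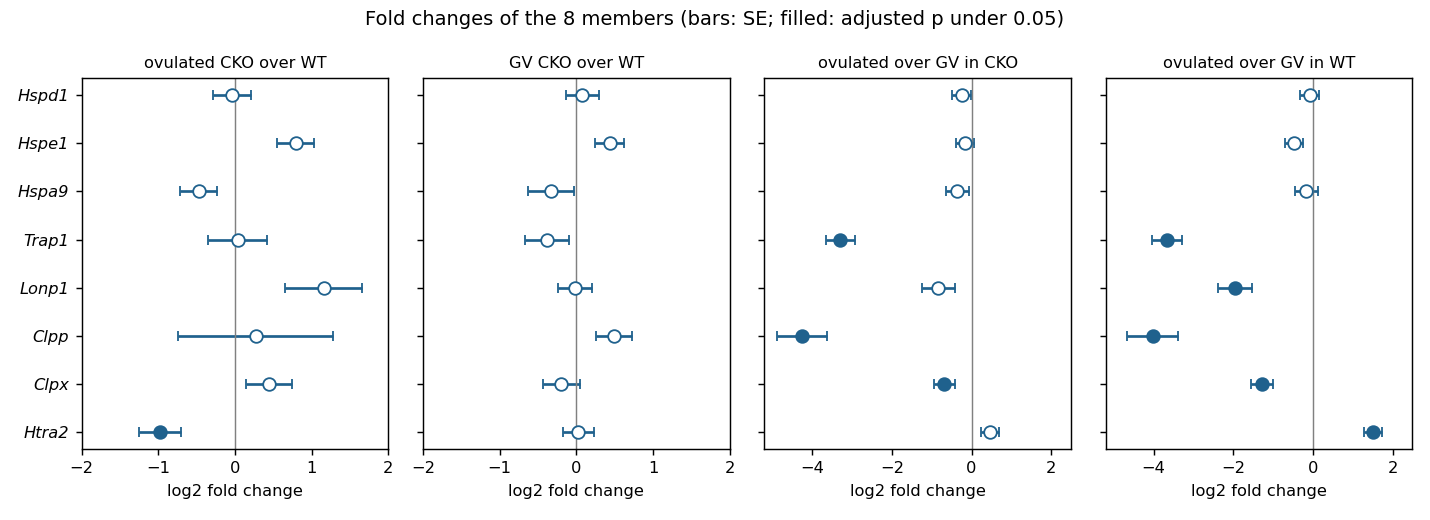
Log2 fold changes of the 8 genes are plotted on the horizontal axis in 4 comparisons, with SE bars; filled points have an adjusted p under 0.05 in edgeR's quasi-likelihood test. Trap1 (-3.29 and -3.67) and Clpp (-4.26 and -4.03) lie far to the left in both stage comparisons, and Htra2 (-0.98) is the filled point among the genotype comparisons.

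The second question was whether loss of Mff from oocytes changes these messages. In ovulated oocytes, Htra2 was lower in CKO than in WT and was the one gene of 8 past the threshold (12.5%, against 7.84% of the 12010 genes tested; 1.4% of all genes were called lower). The 942 calls behind that background became 341 without CKO 2 and 1652 without CKO 1. Hspe1 was higher and Hspa9 lower in each CKO library than in any WT library, without passing the test. For no comparison was the share of all genes without overlap counted. Full separation of 3 against 3 libraries has a two-sided exact permutation p of 0.1. The median over the 8 genes was 0.15, against -0.00 over all genes.

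Htra2 measured 14.95, 12.97 and 14.17 CPM in ovulated CKO libraries, against 29.7, 25.5 and 29.7 CPM in ovulated WT libraries. The CKO values lay between the GV level and the ovulated WT level, with no overlap on either side. Its log2 fold change was -0.98 (SE 0.28, adjusted p = 0.0406). The direction held in all 14 alternatives (log2 fold change -1.07 to -0.74), but the call was kept in 5, and it was lost when any library other than CKO 1 was left out (adjusted p 0.0794 to 0.172). It was also lost at a mean of at least 10 CPM (0.0583) and on the FPKM scale (0.121 and 0.0966), while DESeq2 gave an adjusted p of 0.00406.

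Hspe1 had 119, 156 and 106 CPM in ovulated CKO libraries, against 75.9, 78.4 and 71.1 CPM in ovulated WT libraries. All 3 CKO libraries lay above all 3 WT libraries; the log2 fold change was 0.79 (SE 0.24, adjusted p = 0.058), and 4 of 14 alternatives called it, DESeq2 among them (adjusted p = 0.0289). Hspa9 had 120, 83.1 and 82.4 CPM in ovulated CKO libraries, against 141, 135 and 130 CPM in ovulated WT libraries. Its groups did not overlap either, and the log2 fold change of -0.47 (SE 0.24) had an adjusted p of 0.257. Hspd1 was at 53.5, 47.95 and 49.97 CPM in ovulated CKO libraries, inside the range of the WT libraries (log2 fold change -0.04, SE 0.25, adjusted p = 0.952).

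Among the matrix proteases, the largest value in size belonged to Lonp1, at 1.16 on the log2 scale (SE 0.50, adjusted p = 0.176). It rested on ovulated CKO 2, which had 22.9 CPM where the other CKO libraries had 7.28 and 6.16 CPM; without it the value was 0.31 (adjusted p = 0.83). Clpx measured 18.9 to 24.9 CPM in ovulated CKO libraries, against 13.5 to 20.7 CPM in ovulated WT libraries, with overlap (0.44, SE 0.30, adjusted p = 0.407). Clpp and Trap1 were low in both genotypes and gave 0.27 (SE 1.01, adjusted p = 0.907) and 0.03 (SE 0.39, adjusted p = 0.974). With 17 to 27 counts per CKO library and 0 to 31 per WT library, a Clpp difference of moderate size was not detectable at this depth.

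In GV oocytes, 0 of 8 genes passed the threshold in edgeR, DESeq2 or limma (background 0.0163%, 2 of 12298 genes, with 0.00813% called higher and 0.00813% lower), and 1, Hspe1, had an unadjusted p under 0.05, as had 819 of all genes. The count was also 0 without the 3 GV libraries that stood apart. Hspe1 measured 110, 178, 147 and 137 CPM in GV CKO libraries, against 117, 87.0, 110 and 101 CPM in GV WT libraries; 3 CKO libraries were above all WT libraries and 1 was within their range (log2 fold change 0.43, SE 0.19, adjusted p = 0.744). Clpp had 8.21, 11.6, 12.9 and 14.6 CPM in GV CKO libraries, against 6.67, 9.39, 8.17 and 8.97 CPM in GV WT libraries (0.50, SE 0.23, adjusted p = 0.746). Again 3 of 4 CKO libraries exceeded every WT library. The other 6 genes had log2 fold changes from -0.39 (Trap1) to 0.08 (Hspd1) and adjusted p of 0.773 or more, and the groups of each overlapped; Htra2 was almost level, at 10.1 ± 0.917 CPM in GV CKO and 9.89 ± 0.794 CPM in GV WT oocytes (SD, n = 4 each).

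The genotype effect was then compared between the stages. No gene of the 8 passed the test of that difference in edgeR (background 3.26% of 13199 genes, 3.17% higher and 0.0833% lower). An unadjusted p under 0.05 was found for 1, as for 2052 of all genes, and DESeq2 called 1, against 883 of all 13672 genes. Both times the gene was Htra2, whose genotype effect was lower by 1.05 on the log2 scale in ovulated than in GV oocytes (difference -1.05, SE 0.32, unadjusted p = 0.00377, adjusted p = 0.0813; DESeq2 adjusted p = 0.0128). For Lonp1 the difference was 1.12 (SE 0.57, adjusted p = 0.366); it was 0.26 without ovulated CKO 2, 0.91 to 1.44 with each other library left out and 0.02 without ovulated WT 3 and CKO 2. For Clpx it was 0.59 (SE 0.37, adjusted p = 0.469). The other 5 genes had differences from -0.24 (Clpp) to 0.38 (Trap1).

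Hspd1 and Hspe1, and likewise Clpp and Clpx, encode the 2 parts of a complex, and their ratio within a library does not depend on scaling between libraries. The partners differ in implied length: Hspe1 and Clpp are under 1000 bases, Hspd1 and Clpx from 2000 to 3000 bases. The median CKO-to-WT log2 fold change of all tested genes in ovulated oocytes was 0.77 and -0.07 in these classes. The part of length in the ratios, and in the Hspe1 share of summed FPKM, was not tested. The Hspd1-to-Hspe1 ratio of FPKM was 0.119, 0.0786 and 0.118 in ovulated CKO libraries, against 0.205, 0.182 and 0.146 in ovulated WT libraries. All CKO ratios were below all WT ratios. On the log2 scale (pseudocount 0.1 FPKM) the ratio averaged -3.27 ± 0.34 in CKO and -2.50 ± 0.25 in WT (SD, n = 3 each), a difference of -0.77 with a two-sided exact permutation p of 0.1, the smallest that 3 against 3 libraries allow (adjusted over 4 ratio tests, 0.133). In GV oocytes it averaged -3.27 ± 0.32 in CKO and -2.93 ± 0.20 in WT (SD, n = 4 each), a difference of -0.34 (exact permutation p = 0.0857, adjusted p = 0.133; the smallest possible is 0.0286).

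The Clpp-to-Clpx ratio was 0.688, 1.28, 1.03 and 0.832 in GV CKO libraries, against 0.497, 0.774, 0.534 and 0.525 in GV WT libraries. One CKO library lay below the highest WT library. On the log2 scale it averaged -0.10 ± 0.38 in CKO and -0.79 ± 0.29 in WT (SD, n = 4 each), a difference of 0.69 (exact permutation p = 0.0571, adjusted p = 0.133). In ovulated oocytes, where Clpp was near the limit of detection, the means were -3.56 ± 0.29 in CKO and -4.0 ± 1.95 in WT (SD, n = 3 each), a difference of 0.43 (exact permutation p = 0.7, adjusted p = 0.7) that was -0.56 without WT 2, the library with no Clpp count. None of the 4 ratios differed between genotypes beyond the adjusted threshold.

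**Figure D3:**
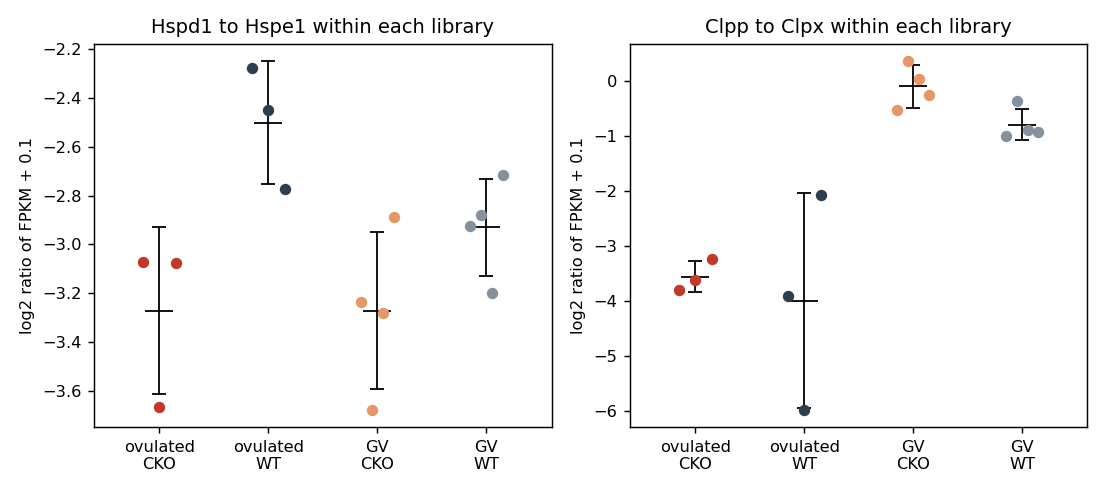
The log2 ratio of Hspd1 to Hspe1 (left) and of Clpp to Clpx (right), from FPKM with a pseudocount of 0.1, is plotted for each library by group; bars are mean ± SD. The 3 ovulated CKO libraries lie below the 3 ovulated WT libraries on the left, and the ratio on the right is lower in ovulated than in GV oocytes in every library.

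Across genes, fold changes moved with transcript length as implied by the deposited counts and FPKM. By that measure the 8 genes differ from 536 bases (Hspe1) and 963 bases (Clpp) to 2735 bases (Lonp1) and 2811 bases (Hspa9). The principal GENCODE M21 transcripts of these 4 are longer, at 774, 983, 2951 and 3049 bases, so the length classes are approximate. In ovulated oocytes the median CKO-to-WT log2 fold change was 0.77 over 1402 genes under 1000 bases, where 351 were called higher and 6 lower, 0.05 from 1000 to 2000 bases, -0.07 from 2000 to 3000 bases and -0.09 above. The value of Hspe1, 0.79, was near the median of its length class. That of Htra2, with an implied 1494 bases, was -0.98 in a class with a median of 0.05 and 61 of 2805 genes called lower. Between the stages in WT the medians were -1.88 under 1000 bases, -1.03 from 1000 to 2000 bases, -0.13 from 2000 to 3000 bases and 0.89 above. Trap1 (2065 bases, -3.67), Lonp1 (-1.95) and Clpx (2649 bases, -1.28) were lower than the median of their class, and Htra2 (1.52) was higher. The part of length in these results was not tested.

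**Figure D4:**
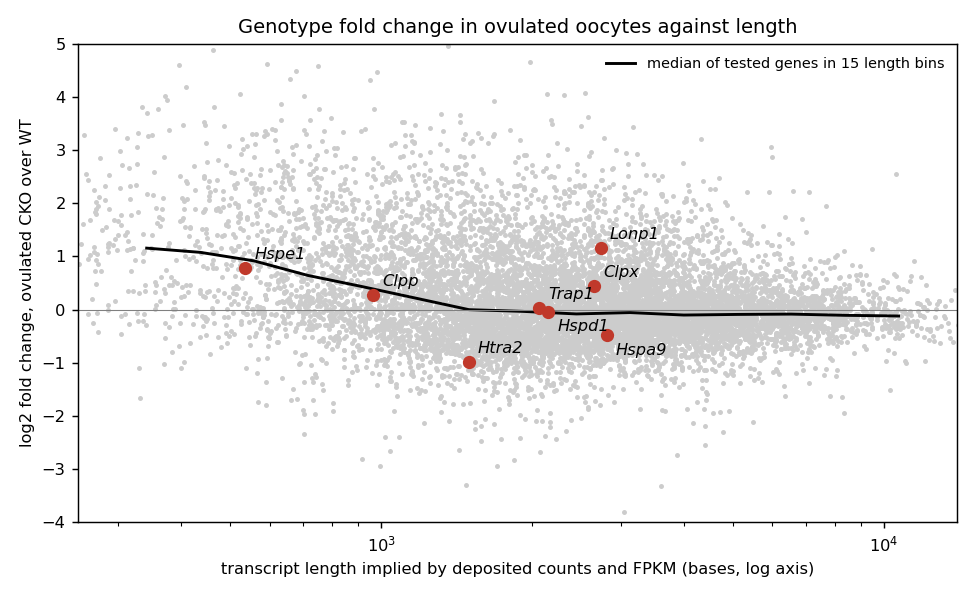
The log2 fold change of ovulated CKO over WT is plotted against implied transcript length (log axis) for 10581 tested genes with a length (grey; 133 lie outside the axes), with the 8 genes in red and the median in 15 length bins as a line. The line is above 0 for short transcripts and passes near Hspe1, while Htra2 lies below it and Lonp1 above it.

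Counts of some of these genes may include reads of other loci. GENCODE M21 names 5 pseudogenes of Hspd1, 6 of Hspe1 and 1 of Hspa9, and nothing used here states how the authors' counting split such reads, so the levels of Hspd1 and Hspe1 are uncertain to that extent. Exons of Hspd1 and Hspe1 share 112 bases on opposite strands. Exons of Htra2 (chr6:83051266-83054571, minus strand) share 753 of 2946 bases with Aup1 and 535 with Loxl3 on the other strand, and without stated strand-specific counting such reads cannot be told apart. Estimated counts of Htra2 were not whole in 5 GV libraries and 1 ovulated library. Those of the other genes of the set were whole in every library. How reads were split behind the Htra2 values was not tested. Aup1, which acts in lipid droplets and in degradation of endoplasmic reticulum proteins, was chosen after its values were seen. It averaged 0.937 ± 0.587 CPM in ovulated CKO, 0.629 ± 0.350 CPM in ovulated WT, 2.96 ± 0.712 CPM in GV CKO and 3.37 ± 1.01 CPM in GV WT oocytes. Between the stages in WT Aup1 fell (log2 fold change -2.42, adjusted p = 0.000316). Loxl3 stayed below 0.15 CPM in every library. These levels do not show to which gene reads of the shared bases were given. The part of such reads in the Htra2 values was not tested.

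Messages of other cell types were low beside the oocyte markers. Marker sums here are CPM of library totals without TMM scaling, while single genes are in TMM-normalised CPM. Sums and single genes are therefore not on the same scale. The summed level of 14 granulosa and cumulus markers was 87.1 to 108 CPM in ovulated CKO, 106 to 117 CPM in ovulated WT, 43.5 to 95.7 CPM in GV CKO and 47.5 to 91.9 CPM in GV WT libraries; Foxl2 and Inha were at 0 in every ovulated library, and Tnfaip6 in every GV library. Cyp19a1, the aromatase, was at 75.6 ± 12.4 CPM in ovulated WT oocytes, against 50.9 ± 5.34 CPM in GV WT oocytes. Of the 9 granulosa and cumulus markers tested, 2 rose and 4 fell between the stages in WT, among them Kitl (1.88), Col4a1 (1.62) and Gja1 (-6.61), and 2 rose and 4 fell in CKO. The 7 blood and immune markers summed to 52.0 to 103 CPM in ovulated CKO, 79.7 to 133 CPM in ovulated WT, 19.4 to 40.1 CPM in GV CKO and 21.2 to 42.2 CPM in GV WT libraries, with Ptprc, Lyz2 and Cd74 at 0 in every ovulated library. Of the 3 tested, 2 rose and 0 fell between the stages in WT: Pecam1, at 94.9 ± 27.8 CPM in ovulated WT and 31.1 ± 1.78 CPM in GV WT oocytes (log2 fold change 1.61, adjusted p = 0.000228), and Cd68 (1.01, adjusted p = 0.0296). In CKO Pecam1 alone was called (0.89, adjusted p = 0.0234). The part of these markers in the stage differences was not tested.

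By the root-mean-square difference of centred log2(CPM + 1) over the 14 libraries, among 8138 genes, the 8 genes were not each other's nearest neighbours. Nearest to Htra2 were Ipp and Errfi1, to Trap1 Ints11 and Eef1g, to Clpp Sox15 and Apex1, to Clpx Fam53b and Plekha2, and to Lonp1 Chaf1a and Rnf40. Cnih4 and Clvs1 were nearest to Hspe1, Msh3 and Kin to Hspd1, and Cops8 and Rae1 to Hspa9. For the chaperonin pair, Hspe1 was 636th in likeness to Hspd1, and Hspd1 was 188th to Hspe1. The closest of the 8 to each other were Hspd1 and Hspa9 (difference 0.32), with Hspd1 177th in likeness to Hspa9 and Hspa9 300th to Hspd1. Clpp ranked 288th in likeness to Trap1 (difference 0.53), and Clpx ranked 290th in likeness to Lonp1. The 14 libraries hold both stages, so this measure mostly follows the stage pattern.

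Related gene lists were then counted. One held 10 genes listed here as partners of mitochondrial HSP70 and HSP60, Clpb included, a grouping that was not tested. Of these 10, 9 fell between the stages in WT and 0 rose (background 36.2% lower). Among them were Clpb, a disaggregase (-3.05), Dnlz, which keeps HSP70 soluble (-3.64), and Dnajc15, a J-protein of the import motor (-3.75). From GV to ovulated CKO oocytes 7 of the 10 fell (background 31.2% lower), among them Grpel1, the nucleotide exchange factor of mitochondrial HSP70 (-2.16). In ovulated CKO oocytes 2 of the 10 were higher than in WT (background 6.44% higher). These were Pam16, at 143 ± 63.0 CPM in CKO and 65.6 ± 3.99 CPM in WT (log2 fold change 1.16, adjusted p = 0.0327), and Dnajc19, at 40.9 ± 12.4 CPM in CKO and 17.8 ± 7.11 CPM in WT (1.23, adjusted p = 0.0381), both of the import motor (SD, n = 3 each). The median of the 10 partners was 1.01, against -0.00 over all genes. Over the 1402 genes under 1000 bases of implied length it was 0.77, and 351 of them were called higher. The part of length in the values of the partners was not tested. Without ovulated WT 3 and CKO 2, and by limma on FPKM, 0 of the 10 were called. In the main test 5 of the 10 had an unadjusted p under 0.05, as had 2795 of all 12010 genes.

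Of 18 other mitochondrial proteases and scaffolds, 10 fell and 4 rose between the stages in WT (background 36.2% lower, 30.3% higher). Examples were Pmpcb, a subunit of the protease that cleaves import signals (log2 fold change -4.94), Parl, the rhomboid protease of the inner membrane (-2.96), and Mipep, the intermediate peptidase (-2.55). In CKO oocytes 8 fell and 4 rose (background 31.2% lower, 23.2% higher), among them the scaffold Phb, which fell by 2.46. Between genotypes in ovulated oocytes 0 of the 18 were called by edgeR (background 7.84%). An unadjusted p under 0.05 was found for 4 of the 18, as for 2795 of all 12010 genes. DESeq2 called 1, against 1564 of all 13297 genes. Parl had the smallest p (log2 fold change 0.92, adjusted p = 0.0694), at 220 ± 79.9 CPM in CKO and 118 ± 31.9 CPM in WT (SD, n = 3 each).

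Transcription factors of the mitochondrial stress response also differed between the stages. In WT, Ddit3 (-3.91) and Atf4 (-3.48) fell and Hsf1, the heat-shock factor, rose (1.40), with 1 of 4 tested higher and 3 lower (background 30.3% higher, 36.2% lower). The counts were the same in CKO (background 23.2% higher, 31.2% lower), at -3.35 for Ddit3, -1.44 for Atf4 and 1.05 for Hsf1, but 1 of the 4 was called lower there with the replicate block and by limma on either FPKM scale. In ovulated oocytes Atf4, the effector of the integrated stress response, was higher in CKO, at 48.9 ± 29.2 CPM, against 16.9 ± 0.312 CPM in WT (SD, n = 3 each; log2 fold change 1.56, adjusted p = 0.0172), and was the one of 3 tested that was called (background 6.44% higher); it was not called without ovulated WT 3 and CKO 2. Its difference in genotype effect between the stages was 2.04 (adjusted p = 0.108).

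Of 15 genes for chaperones and the Lon protease outside mitochondria, the counterparts of the 8 genes, 12 fell and 1 rose between the stages in WT (background 36.2% lower, 30.3% higher) and 10 fell and 0 rose in CKO (background 31.2% lower, 23.2% higher), among them Hspa8, the cytosolic HSP70 (-4.61 in WT), and Cct3 (-4.01) and Tcp1 (-3.38) of the cytosolic chaperonin. In ovulated oocytes 3 were higher in CKO than in WT and 1 was lower (background 6.44% higher, 1.4% lower). The lower gene was not among the 3 with the smallest p, which are the ones named. Without ovulated WT 3 and CKO 2 the counts were also 3 higher and 1 lower. With limma they were 1 and 0 on log2(FPKM + 0.1), and 0 and 0 on log2(FPKM + 1). Cct3 measured 69.7 ± 29.03 CPM in CKO and 22.5 ± 1.96 CPM in WT (log2 fold change 1.66, adjusted p = 0.00396), Tcp1 67.7 ± 22.2 CPM in CKO and 25.8 ± 1.01 CPM in WT (1.43, adjusted p = 0.00592), and Lonp2, the peroxisomal Lon protease, 163 ± 39.8 CPM in CKO and 64.4 ± 11.9 CPM in WT (1.37, adjusted p = 0.00548; SD, n = 3 each). Cct3 (1.73, adjusted p = 0.032) and Tcp1 (1.45, adjusted p = 0.0387) also passed the test of a different genotype effect between the stages, which Hspd1, the chaperonin gene of the mitochondrion, did not (-0.17, adjusted p = 0.835); neither was called without ovulated WT 3 and CKO 2. Of the partners, proteases and transcription factors 0 genes passed that test in edgeR. With RLE scaling 1 partner did (over all genes, 526 higher and 11 lower). DESeq2 called 1 partner of HSP70 and HSP60, 2 proteases and 1 transcription factor, against 883 of all 13672 genes. In the main test 6, 3 and 1 had an unadjusted p under 0.05, as had 2052 of all 13199 genes. Of the 10 oocyte markers 2 passed it, Zp2 (2.47, adjusted p = 0.0121) and Zp3 (1.599, adjusted p = 0.042), and neither did without ovulated WT 3 and CKO 2. In GV oocytes 0 genes of these 4 lists were called between genotypes by edgeR, DESeq2 or limma. Lonp2 and Hsp90ab1 had an unadjusted p under 0.05 in edgeR, as had 819 of all 12298 genes.

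**Figure D5:**
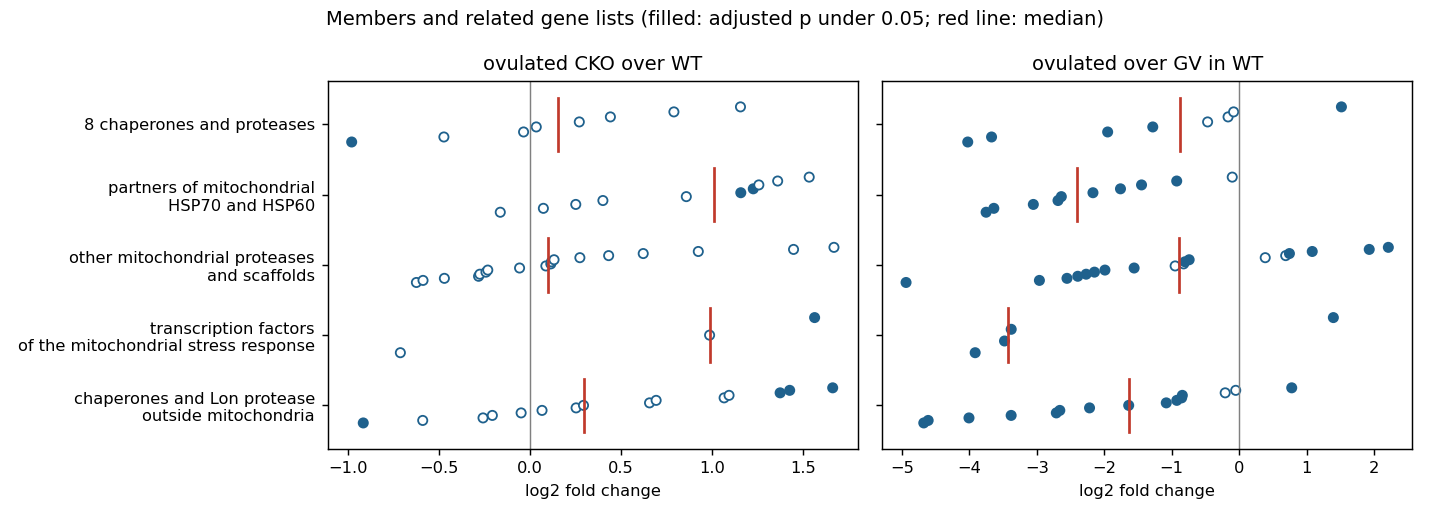
Log2 fold changes of the 8 genes and of 4 related lists are plotted for ovulated CKO over WT (left) and ovulated over GV in WT (right); each point is a gene, filled where adjusted p is under 0.05, and red lines are medians. On the left the partners of mitochondrial HSP70 and HSP60 have a median of 1.01 and the 8 genes one of 0.15; on the right the medians of the 5 rows are -0.87, -2.40, -0.89, -3.43 and -1.64.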

How the data were processed

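RNA from mouse oocytes was reverse-transcribed with SMART-SeqII and preamplified by PCR, per the labels' protocols. The authors deposited, per the file headers, read counts and FPKM per gene for each stage. The authors deposited the counts without normalisation as estimated counts: 17.6% of GV and 18.3% of ovulated values above 0 differed from a whole number by over 0.001, and all were rounded. The FPKM were made by the authors, scaled to transcript length and depth per the file headers. The submitters' processing notes name the build mm10; no source used here names the aligner or counter. Of 18507 genes, 16196 were in both tables.

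Genotypes were compared within a stage with edgeR 4.0.16 (R 4.3.3; filterByExpr, TMM, robust quasi-likelihood F test). Stages, and the interaction of genotype with stage, came from a joint fit of 14 libraries. P-values were Benjamini-Hochberg adjusted over all genes and called under 0.05. SE was derived from the F statistic. Alternatives were RLE scaling, other filters (none, or at least 10 CPM on average), DESeq2 1.42.0, limma 3.58.1 on log2 FPKM with pseudocounts of 1 and 0.1, the replicate number as a block, and leaving libraries out. Chi-square over degrees of freedom for the 18 replicate pairs ranged from 20.3 to 336, so no library repeated another. Marker sums are CPM of library totals.

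The members and lists were chosen with earlier results of these data known; the tail letters and overlapping genes were looked at after the data were seen. All 8 genes are given in every comparison; from each list up to 3 called genes with the smallest p are named, or 2 where none was called. A sequence of 1 further message end is not reported here.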

Additional observations from a re-analysis of the deposited data

How the results depend on the processing

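Of 785 recomputed log2 fold changes of the 8 genes, 706 kept direction and side of the threshold, 21 lost the call, 17 gained it and 41 changed sign; no called fold change was among the 41, whose cause was not tested. The number of genes called in ovulated CKO over WT (1) was 2 with DESeq2 and 2 with the replicate block, 0 with limma on log2(FPKM + 1) and on log2(FPKM + 0.1), 0 without ovulated WT 3 and CKO 2, and 0 to 2 when each library was left out. For the difference in genotype effect (0) it was 1 with DESeq2. Same-number correlations of deviations were -0.338, 0.240, 0.0533 and 0.447 in GV and 0.0792, 0.0227 and 0.201 in ovulated oocytes. Some CKO libraries, but not all, correlated best with the WT library of their own number. These values do not settle whether replicate numbers pair the libraries. The block moved the calls over all genes in ovulated CKO over WT to 1630, against 942. These were 506 at 10 CPM, 1564 with DESeq2, 1 and 196 with limma on FPKM + 1 and + 0.1, 235 without WT 3 and CKO 2, and 341 (without CKO 2) to 1652 (without CKO 1) with each library left out, so the 7.84% background moves with them. Sign changes of log2 fold changes were as follows. In GV CKO over WT, Lonp1 was 0.0013 with RLE, 0.030 at a mean of at least 10 CPM, 0.11 on either FPKM scale and -0.19 to 0.072 with each library left out, and Htra2 was -0.089 without the 3 GV libraries and -0.063 to 0.090 with each left out; Hspd1 was -0.069 to 0.18 with each left out. In ovulated CKO over WT, Hspd1 was 0.059 at 10 CPM, 0.19 and 0.20 on FPKM + 1 and + 0.1, and -0.17 to 0.082 with each left out; Trap1 was -0.25 to 0.42 and Clpp -0.32 to 1.5 with each left out, and Lonp1 was -0.0079 without WT 3 and CKO 2. Between the stages in WT, Hspd1 was 0.0039 without a filter, 0.32 and 0.33 on FPKM, 0.0095 with the replicate block, 0.062 without ovulated WT 3 and CKO 2 and -0.20 to 0.062 with each left out, and Hspa9 was 0.30 on either FPKM scale and 0.032 with the block. In CKO, on FPKM + 1 and + 0.1, Hspd1 was 0.29 and 0.30, Hspe1 0.30 on both and Hspa9 0.21 on both. For the difference in genotype effect, Clpp was 0.47 on FPKM + 0.1, 0.16 with the replicate block, 0.92 without WT 3 and CKO 2 and -0.82 to 1.03 with each left out, and Hspa9 was -0.39 to 0.046. The ovulated Clpp-to-Clpx difference was -0.56 to 1.39 with each library left out. Over all genes, calls in GV CKO over WT were 33 higher and 22 lower with DESeq2, against 1 and 1. Where a group has 3 libraries, 1 library can decide a call; Clpp in ovulated oocytes rests on at most 31 counts per library.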
